A study of Mus musculus with 8 samples.

Results

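The S100 genes encode small calcium-binding proteins, and 10 of them are described here in hemophagocytes and resting macrophages of the mouse spleen: S100a1, S100a3, S100a4, S100a6, S100a8, S100a9, S100a10, S100a11, S100a13 and S100a16. They are 10 of 19938 genes measured, and 10 of the 17 S100 genes with a probe set of their own. The members were chosen by symbol with earlier results of these data known, S100a6 among them. Where a gene had several probe sets, the 1 with the highest mean over all 8 arrays was selected on that level; only S100a11 had more than 1. Hemophagocytes are macrophages that have taken up whole blood cells. The donors were 8-week-old C57Bl/6j males of wild-type genotype given 4 intraperitoneal doses on alternate days of 37.5 ug CpG1826, an oligonucleotide that activates Toll-like receptor 9, with 200 ug of antibody clone 1B1.3A, which blocks the IL-10 receptor. Resting macrophages came from mice of the same strain, sex, genotype and age given 200 uL of PBS on the same schedule. In both groups 20 cells per mouse were laser-captured from touch preparations of the spleen and pooled, and 4 arrays were run per group, named here by the replicate numbers of the labels (hemophagocytes 2, 3, 5 and 6, resting macrophages 3, 4, 5 and 6). The labels do not describe what marked a cell as a target. No treated macrophages without engulfed cells are among the samples analysed here, so treatment and engulfment cannot be told apart.

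S100 proteins carry a pair of EF-hands, helix-loop-helix units that bind calcium, and most work as dimers that change shape when calcium rises and then bind a partner protein. Inside the cell they act on annexins, the cytoskeleton and membrane channels. Several are also released: S100a8 and S100a9 form calprotectin, which is abundant in neutrophils and inflammatory monocytes, withholds zinc and manganese from microbes and signals through Tlr4 and the receptor Ager (RAGE). S100a10 differs from its relatives in that its EF-hands no longer bind calcium. In the RefSeq gene table (GRCm38.p6, used for gene order only) all 10 members lie on chromosome 3. S100a8 and S100a9 are neighbours there, as are S100a10 and S100a11, and S100a6 follows S100a4 and S100a5.

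Values are log2 expression as deposited, 1 value per probe set and array, so a difference of 1 is a 2-fold change. Hemophagocytes 3 and 5 stood apart: 154 and 159 genes lay more than 1 above their own median over the 8 arrays. On hemophagocytes 2 and 6 there were 13 and 30 such genes, and each resting array had 7 to 16. Results are therefore also given without hemophagocytes 3 and 5. As a rough floor, each value was set against the 95th percentile of 1179 olfactory and vomeronasal receptor genes, mostly genes of sensory neurons, on the same array (7.41 to 7.80). S100a11 lay above this floor on 4 hemophagocyte and 3 resting arrays, S100a6 on 3 and 0, and S100a16 on 2 and 0. On hemophagocyte 2 S100a6 was barely above it (7.597 against a floor of 7.590), and so was S100a11 on resting macrophages 5 and 6. S100a4, S100a8, S100a9, S100a10 and S100a13 exceeded the floor on 1 hemophagocyte array each and on 0 resting arrays, and S100a1 and S100a3 on 0 arrays. The floor was lowest on hemophagocyte 3 (7.41), where S100a13 (7.55) and S100a16 (7.49) exceeded it. Higher values of S100a13 on resting macrophages 3 and 5 (7.63 and 7.58) and of S100a16 on resting macrophages 4 and 5 (7.55 and 7.54) did not. For these 2 genes the counts therefore do not set the groups apart. For members below the floor, whether a transcript was detected cannot be told. The macrophage label was uneven by the same measure: 7 of 17 measured macrophage markers exceeded the floor on at least 1 array. Lyz2, macrophage lysozyme, read 5.86, 9.95, 9.96 and 6.55 on hemophagocytes 2, 3, 5 and 6, with resting values of 7.45 to 8.89, while the macrophage surface receptors Adgre1 and Csf1r exceeded the floor on 0 arrays. In pools of captured cells, fewer cells of a type and less RNA per cell cannot be told apart.

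**Figure D1:**
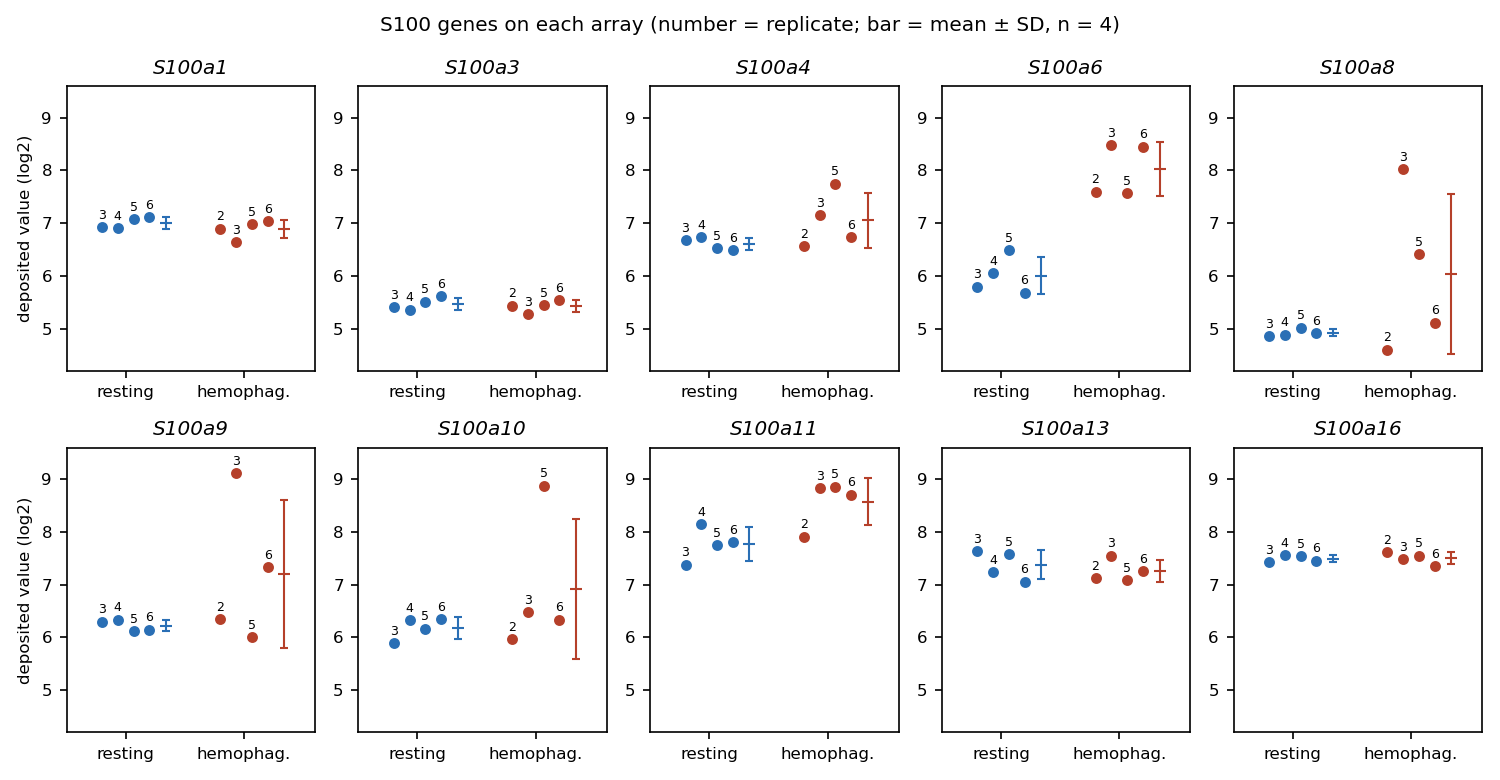
The deposited log2 value of each of the 10 S100 genes on every array, resting macrophages in blue and hemophagocytes in red, with the replicate number over each point and the group mean ± SD (n = 4) beside it. S100a6 is the 1 gene in which every hemophagocyte array (7.57 to 8.47) lies above every resting array (5.68 to 6.48).

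S100a6 was higher in hemophagocytes, and it was the 1 member called. S100a6 (calcyclin) binds annexins and the ubiquitin ligase adaptor Cacybp. It stood at 7.60, 8.47, 7.57 and 8.45 on hemophagocytes 2, 3, 5 and 6, and at 5.80, 6.06, 6.48 and 5.68 on resting macrophages 3, 4, 5 and 6. The groups did not overlap, and the gap between the lowest hemophagocyte and the highest resting array was wider than either group's SD. The means were 8.02 ± 0.51 and 6.00 ± 0.35 (SD, n = 4 each), a log2 change of 2.02 (SE 0.24, 95% interval 1.49 to 2.55, limma adjusted p = 0.0479 over all genes, probe set 10493820). No fold is given, because all 4 resting arrays, and hemophagocyte 5, were below the receptor-gene floor for S100a6, so its resting level was not above background. Of all genes tested 0.01% were called higher at this threshold. No gene was called lower, the members included. Hemophagocytes 3 and 6 were the high arrays and 2 and 5 the lower ones, so the order of the arrays was not that of array 3 and 5 against the rest. Without hemophagocytes 3 and 5 the change was 2.02, and adjusted p = 0.0929.

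The size of the S100a6 difference moved little while its adjusted p crossed the threshold. Over 18 alternative settings the log2 change ran from 1.87 to 2.18. It passed in 6 of them and not in 12, with adjusted p from 0.0187 without hemophagocyte 2 to 0.663 with an intensity trend and a robust prior. Among single arrays left out, the call held without hemophagocyte 2 or 5, with adjusted p = 0.0271 without the latter. It ended without hemophagocyte 3 (adjusted p = 0.0933) or 6 (0.128), or without resting macrophage 3 (0.148), 4 (0.191), 5 (0.0523) or 6 (0.228). With each array's mean over the receptor genes as a covariate, the change was 1.90 and adjusted p = 0.428.

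**Figure D2:**
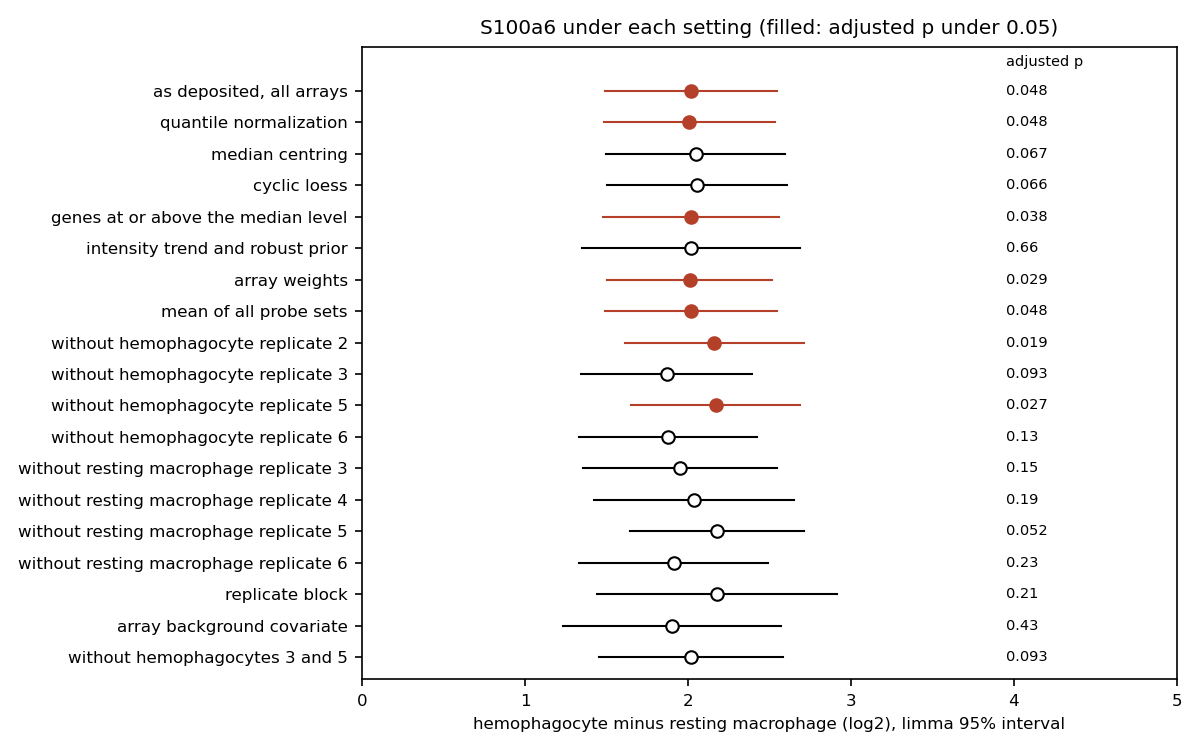
The log2 change of S100a6 (horizontal axis, hemophagocyte minus resting macrophage, with limma's 95% interval) under the deposited values and 18 alternative settings (vertical axis). All points lie between 1.87 and 2.18, and filled points mark an adjusted p under 0.05.

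Among the annexin partners S100a10 and S100a11, hemophagocyte values were higher on some arrays and neither gene was called. S100a11 (calgizzarin), which works with annexin A1 in membrane repair and vesicle traffic, stood at 7.91, 8.83, 8.86 and 8.71 on hemophagocytes 2, 3, 5 and 6, and at 7.38, 8.15, 7.75 and 7.81 on resting macrophages 3, 4, 5 and 6. Hemophagocytes 3, 5 and 6 lay together above all resting arrays, and hemophagocyte 2 fell among them. The change was 0.80 (SE 0.21, 95% interval 0.33 to 1.28), with a limma unadjusted p of 0.00336 and adjusted p = 0.747. No fold is given here either, because most resting values of S100a11 lay near or below the receptor-gene floor. Resting macrophage 3 was below it, and resting macrophage 4 was clear of it. Resting macrophages 5 and 6 were barely above it (7.7544 and 7.8069 against floors of 7.7455 and 7.7669). At an unadjusted p under 0.05, S100a6 and S100a11 were the 2 members higher, where 1.53% of all genes were, and 0 members were lower, where 5.05% of all genes were. A further probe set of S100a11 (10457640) read 7.89, 8.75, 8.55 and 8.48 on the hemophagocyte arrays in the same order and 7.77, 7.87, 7.67 and 7.63 on the resting arrays. On that probe set the groups did not overlap, though hemophagocyte 2 lay close to the highest resting array, and the difference of means was 0.69. It is assigned to S100a11 by the platform annotation, and whether it also matches other sequences was not checked. Over the 18 alternatives the S100a11 change was 0.53 to 1.15, with adjusted p from 0.075 to 0.974.

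S100a10 (p11), which pairs with annexin A2 and brings plasminogen and ion channels to the cell surface, was high on 1 array. It read 8.88 on hemophagocyte 5, with 5.96, 6.48 and 6.34 on hemophagocytes 2, 3 and 6 and 5.89, 6.33, 6.17 and 6.35 on resting macrophages 3, 4, 5 and 6. Apart from hemophagocyte 5 the groups overlapped. The change was 0.73 (SE 0.51, limma adjusted p = 0.768), 0.08 without hemophagocyte 5, and -0.03 without hemophagocytes 3 and 5. S100a4 (metastasin), which binds non-muscle myosin and is used as a marker of motile cells, also peaked on hemophagocyte 5. It stood at 6.57, 7.16, 7.75 and 6.74 on hemophagocytes 2, 3, 5 and 6, and at 6.67, 6.73, 6.53 and 6.49 on resting macrophages 3, 4, 5 and 6. Hemophagocytes 3 and 5 were above the resting arrays, hemophagocyte 6 was level with the highest of them and hemophagocyte 2 lay within their range. The S100a4 change was 0.45 (SE 0.21, limma adjusted p = 0.747) and 0.05 without hemophagocytes 3 and 5.

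The calprotectin genes S100a8 and S100a9 were high on hemophagocyte 3, but not on the same other arrays, and neither was called. S100a8 (calgranulin A) stood at 4.60, 8.02, 6.41 and 5.12 on hemophagocytes 2, 3, 5 and 6, and at 4.86, 4.89, 5.02 and 4.92 on resting macrophages 3, 4, 5 and 6. Hemophagocytes 3 and 5 were clear of the resting arrays, hemophagocyte 6 was just above them, and hemophagocyte 2 was the lowest array of all. S100a9 (calgranulin B) stood at 6.35, 9.12, 6.01 and 7.33 on the hemophagocytes in that order, and at 6.30, 6.34, 6.12 and 6.14 on the resting arrays. Here hemophagocytes 3 and 6 were high, hemophagocyte 2 was level with the highest resting array, and hemophagocyte 5, high for S100a8, was the lowest. The change was 1.12 for S100a8 (SE 0.57, 95% interval -0.15 to 2.39, limma adjusted p = 0.747) and 0.98 for S100a9 (SE 0.53, 95% interval -0.19 to 2.14, limma adjusted p = 0.75). S100a6 and S100a8 were the 2 members with a change of 1 or more, a size reached by 0.346% of all genes. Without hemophagocyte 3 the changes were 0.46 and 0.34, without hemophagocytes 3 and 5 they were -0.06 and 0.62, and with the receptor-gene covariate they were 0.31 and 0.0006.

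**Figure D3:**
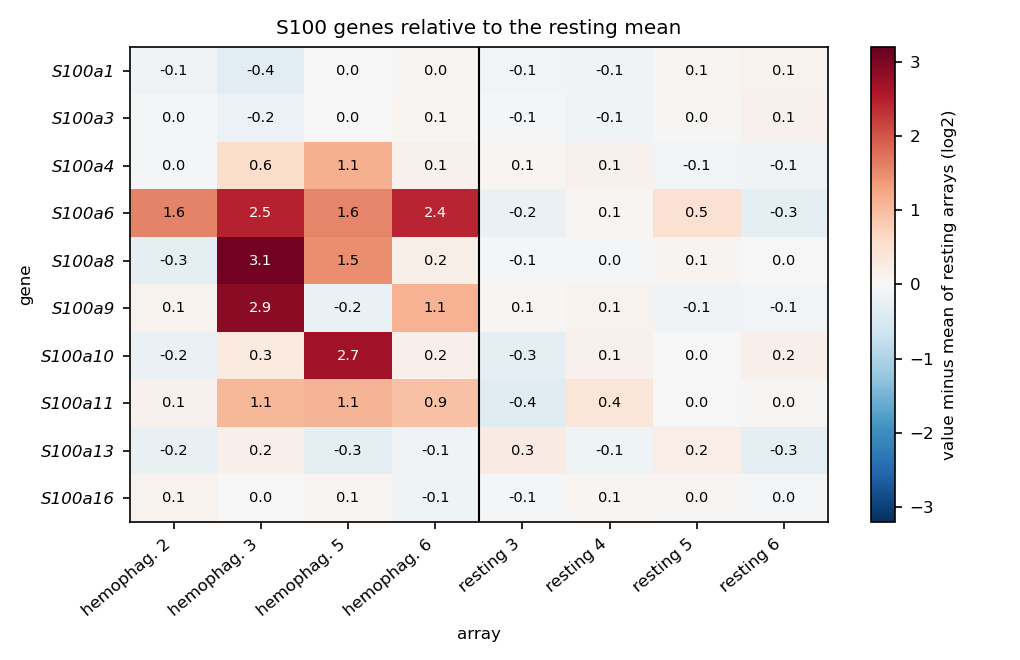
Each S100 gene (rows) on each array (columns) as its log2 value minus the gene's mean over the 4 resting arrays, with red for higher and blue for lower. Deviations over 1 fall on all 4 hemophagocytes for S100a6, on hemophagocytes 3 and 5 for S100a8 and S100a11, on 3 and 6 for S100a9 and on 5 for S100a4 and S100a10.

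Neutrophils are the cells richest in calprotectin, so neutrophil markers are given beside these 2 genes. Over all 19938 genes, 36.1% had a change above 0 and 2 were called, and the marker counts below are to be read beside that. Of 15 neutrophil markers measured, 6 had a change above 0 and 0 were called. The list's mean level ran from 6.41 to 6.46 on the hemophagocyte arrays and from 6.34 to 6.43 on the resting arrays. The granule genes Mpo, Elane, Ltf, Ngp and Camp and the surface antigen Ly6g exceeded the receptor-gene floor on 0 of 8 arrays. Lcn2, an iron-scavenging protein of granules that activated macrophages also make, moved with S100a8: it stood at 6.48, 8.70, 7.67 and 6.70 on hemophagocytes 2, 3, 5 and 6, with resting values of 5.79 to 6.35 (change 1.20, SE 0.40, limma adjusted p = 0.747). It exceeded the floor on hemophagocyte 3, and Retnlg, at 7.85, did so on hemophagocyte 2. Of 6 monocyte markers measured, 1 had a change above 0 and 0 were called. That 1 was Plac8, which like S100a10 was high on hemophagocyte 5 alone. It read 7.52 there, below that array's floor of 7.71, against 5.29 to 5.89 on the other hemophagocytes and 5.40 to 5.60 on the resting arrays. The monocyte marker Cx3cr1 exceeded the floor on 4 hemophagocyte and 4 resting arrays (7.68 to 8.03, change -0.03). The part of these cells in the S100 values was not tested. Of 17 macrophage markers measured, 11 had a change above 0, 0 were called and the median was 0.16; the list's mean level ran from 6.53 to 7.51 on the hemophagocyte arrays and from 6.64 to 6.82 on the resting arrays. Lyz2 (-0.40), Timd4 (-0.18), Slc40a1 (-0.17), Spic (-0.10) and Csf1r (-0.09) were among those with changes below 0. Cd68 and C1qc were, like S100a8, high on hemophagocytes 3 and 5 (9.66 and 10.52 for Cd68, 8.57 and 9.58 for C1qc), an order that S100a6 and S100a9 did not share. On the other arrays Cd68 lay between 7.21 and 7.50 and C1qc between 6.81 and 7.33, and their part was not tested either. Of the markers of B, T and NK cells, erythroid cells, platelets and dendritic cells, 0 were called. Of 4 platelet markers measured, 3 had a change above 0 and the median was 0.03. Pf4, a platelet chemokine that was also high on hemophagocytes 3 and 5, stood at 6.10, 10.35, 9.11 and 5.49 on hemophagocytes 2, 3, 5 and 6, with resting values of 6.61 to 7.41. The platelet chemokine gene Ppbp had a change of -0.20 and was lowest on hemophagocyte 3 at 4.80, and Gp9 (0.0048) and Itga2b (0.05) had changes near 0. The part of platelets was not tested.

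The remaining 4 members showed no difference that could be told from the spread between arrays. S100a1, a muscle-rich member that regulates calcium release, stood at 6.90, 6.64, 6.99 and 7.04 on hemophagocytes 2, 3, 5 and 6 and at 6.92, 6.90, 7.08 and 7.11 on the resting arrays 3, 4, 5 and 6. Its change was -0.11 (95% interval -0.33 to 0.10). S100a3, a zinc-binding protein of the hair cuticle, lay between 5.28 and 5.54 in hemophagocytes and between 5.36 and 5.61 in resting macrophages, with a change of -0.04 (95% interval -0.23 to 0.14). Both genes overlapped between the groups, with hemophagocyte 3 the lowest array and resting macrophage 6 the highest for each. S100a13, which takes part in the release of Fgf1 and Il1a, lay between 7.09 and 7.55 in hemophagocytes and between 7.06 and 7.63 in resting macrophages (change -0.12, 95% interval -0.44 to 0.19). S100a16, a widely expressed member, lay between 7.35 and 7.62 against 7.43 and 7.55 (change 0.01, 95% interval -0.16 to 0.17). The intervals of S100a1, S100a3 and S100a16 reach no further than 0.33 from 0, and that of S100a13 no further than 0.44. Those of S100a8 and S100a9 reach past 2. S100a1 and S100a3 exceeded the receptor-gene floor on 0 arrays, S100a13 on 1 and S100a16 on 2. Narrow intervals at that level do not bound a change in transcripts that may not have been detected. Limma adjusted p for these 4 genes was 0.802 to 0.993.

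**Figure D4:**
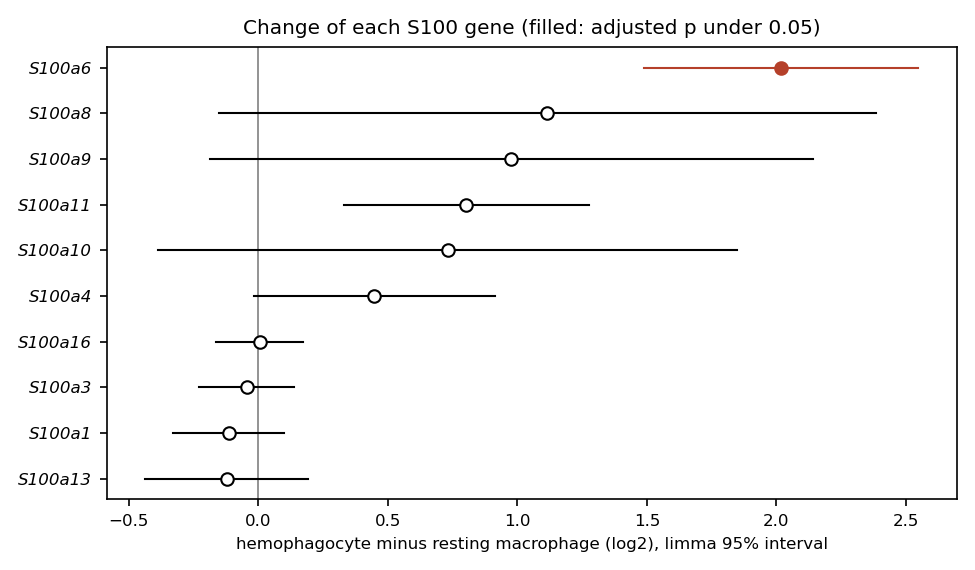
The log2 change of each S100 gene (hemophagocyte minus resting macrophage, n = 4 arrays each) with limma's 95% interval. S100a6, filled, is the 1 gene past an adjusted p of 0.05, and the intervals are widest for S100a8, S100a9 and S100a10.

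Over the 10 members, 7 had a change above 0 and the median change was 0.59, against 36.1% of all genes above 0 and a median of -0.04; the members were picked with such values in view. Without hemophagocyte 5 the members' median was 0.15, and without hemophagocytes 3 and 5 it was 0.0033. The groups did not overlap in 1 member, S100a6, where 0.802% of all genes had all hemophagocyte arrays above all resting ones, and in 0 members in the other direction, where 2.9% of all genes did. Without hemophagocyte 2, 4 members did not overlap, S100a4, S100a8 and S100a11 joining S100a6. With fewer arrays groups separate more readily, and the share of all genes was not counted for that setting. The count therefore cannot be read as a result about the members. The number of members more than 1 above their resting mean was 1 on hemophagocyte 2, 4 on hemophagocyte 3, 5 on hemophagocyte 5 and 2 on hemophagocyte 6. The share of all genes was not counted on this measure, so these counts have no comparison. The SD was larger in hemophagocytes than in resting macrophages for 8 of 10 members, and for 60.3% of all genes. Resting SDs ran from 0.06 to 0.35 and hemophagocyte SDs from 0.11 to 1.52, the largest being that of S100a8.

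The 7 S100 genes outside the list stayed low. S100a5, S100a7a, S100a14, S100b, S100g and S100z, which are chiefly genes of neurons, glia and epithelia, had 1 change above 0 and a median change of -0.04, with 0 called. None of these 6 exceeded the receptor-gene floor on any array. S100a5, the gene between S100a4 and S100a6, stood at 6.42 to 6.68 in hemophagocytes and 6.69 to 6.79 in resting macrophages, with the groups apart by a narrow margin in the direction opposite to S100a6 (change -0.15, SE 0.08, limma adjusted p = 0.747). S100a14 (-0.09), S100g (-0.05) and S100z (0.08) overlapped between the groups. S100a2, added to this comparison after its values were seen, had a change of -0.10. Among 6 measured fused-type genes, the skin barrier proteins that carry an S100 domain at one end, 4 had changes above 0, 0 were called and the median was 0.04. Flg2 (-0.14), Hrnr (0.10), Tchhl1 (0.08) and Crnn (0.05) had the smallest p values.

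Receptors of released S100 proteins were not called. Of 7 measured, 2 had changes above 0, 0 were called, and the median was -0.06. Over all genes 36.1% had changes above 0, 2 were called and the median was -0.04, so these counts are not particular to the receptors. Tlr4 lay between 4.41 and 4.98 on all 8 arrays (change -0.11, SE 0.13), and Ager had a change of 0.02. Alcam, an adhesion receptor reported to bind S100 proteins, was lower on all hemophagocyte arrays (7.22 to 7.34) than on all resting arrays (7.35 to 7.59), with a change of -0.20 (SE 0.07, limma adjusted p = 0.747). The neuroplastin gene Nptn (-0.14) and Bsg (-0.06), which encodes basigin, followed.

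The intracellular partners of S100 proteins were not called either. Of 13 measured, 5 had changes above 0, 0 were called, and the median was -0.04, close to the share and median over all genes. Anxa2, the annexin that holds S100a10, stood at 6.36, 6.43, 6.59 and 6.52 on hemophagocytes 2, 3, 5 and 6, with resting values of 6.04 to 6.54 (change 0.20, SE 0.10, limma adjusted p = 0.747). Its highest value was on hemophagocyte 5, where S100a10 was also highest, but all hemophagocyte values except that 1 lay within the resting range. Cacybp, the S100a6-binding adaptor, had a change of 0.17 (SE 0.09), Sugt1, a co-chaperone that binds S100a6, had -0.29 (SE 0.15), and the calcium channel Trpv6, carried to the membrane by S100a10, had -0.11 (SE 0.08). Annexin A1, the partner of S100a11, lay between 4.19 and 4.48 on all arrays.

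Calprotectin delivers arachidonic acid to the phagocyte NADPH oxidase, and 1 subunit of that enzyme shared the hemophagocyte 3 peak. Cyba (p22phox) stood at 6.24, 8.98, 6.66 and 6.32 on hemophagocytes 2, 3, 5 and 6, with resting values of 5.94 to 6.31 (change 0.87, SE 0.49, limma adjusted p = 0.75). The groups overlapped through hemophagocyte 2. Cybb, its membrane partner, had a change of -0.08, and the GTPases Rac1 and Rac2 had 0.17 and -0.07. Of 6 oxidase genes measured, 2 had changes above 0, 0 were called and the median was -0.04. Of 6 transcription factors known to control S100a8 and S100a9, 3 had changes above 0, 0 were called and the median was -0.0028. Hif1a had -0.20 (SE 0.09, limma adjusted p = 0.747), Cebpb 0.09, Cebpa -0.05 and Stat3 -0.03.

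Other EF-hand proteins gave 11 of 15 measured genes above 0, with a median of 0.10 and 0 called. Calm2, a calmodulin gene, stood at 7.51, 9.93, 10.47 and 6.94 on hemophagocytes 2, 3, 5 and 6, with resting values of 6.55 to 7.34 (change 1.82, SE 0.67, limma adjusted p = 0.747). Like S100a8, it was highest on hemophagocytes 3 and 5. Tesc (tescalcin), a regulator of sodium-proton exchange, had no overlap between the groups, at 6.92 to 7.34 against 6.49 to 6.77 (change 0.46, SE 0.10, limma adjusted p = 0.747). Sri (sorcin) peaked on hemophagocyte 6 at 8.56, with 5.34 to 6.76 on the other hemophagocytes and 5.53 to 5.83 on the resting arrays. Pdcd6, a regulator of membrane repair, had a change of 0.16.

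The stretches just upstream of S100a6, S100a8 and S100a9 are shown because S100a6 was the 1 gene called and the other 2 are neighbours whose high arrays differed. RefSeq promoter windows (GRCm38.p6) were matched for 9 of 10 members, 13 windows in all, the 1 unmatched being S100a10. Each line gives the 250 bases before the annotated gene start, in the direction of transcription, with matches to 6 short motifs in capitals: chr3:90612644-90612893 on the plus strand for S100a6, chr3:90668821-90669070 on the plus strand for S100a8 and chr3:90695722-90695971 on the minus strand for S100a9.
S100a6: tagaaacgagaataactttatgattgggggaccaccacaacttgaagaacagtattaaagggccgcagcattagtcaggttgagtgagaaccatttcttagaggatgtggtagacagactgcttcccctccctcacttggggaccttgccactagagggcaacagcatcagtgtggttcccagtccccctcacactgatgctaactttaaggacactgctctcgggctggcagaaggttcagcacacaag
S100a8: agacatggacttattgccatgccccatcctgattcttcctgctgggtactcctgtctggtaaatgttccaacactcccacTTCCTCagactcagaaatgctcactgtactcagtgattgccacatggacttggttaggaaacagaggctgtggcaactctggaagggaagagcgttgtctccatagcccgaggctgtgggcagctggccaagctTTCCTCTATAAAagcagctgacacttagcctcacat
S100a9: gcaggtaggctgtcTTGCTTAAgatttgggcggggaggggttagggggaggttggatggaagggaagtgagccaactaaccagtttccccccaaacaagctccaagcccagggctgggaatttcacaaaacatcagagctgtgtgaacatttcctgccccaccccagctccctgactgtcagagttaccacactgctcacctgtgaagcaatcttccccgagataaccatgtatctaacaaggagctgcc
The motifs were searched on both strands, and their frequency is given over 32851 RefSeq windows of this length. The STAT motif TTCNNNGAA occurred in 7.02% of windows and the AP-1 motif TGANTCA in 6.75%. Among factors of myeloid cells, the C/EBP motif TTGCNNAA occurred in 9.56% and the PU.1 motif GAGGAA in 23.3%. The kappa B form GGNNNTTCC occurred in 15.7%, and the TATA box, searched as TATAAA, in 12.4%. The S100a8 window held a PU.1 match at -170 and another at -36, the latter directly joined to a TATA match at -30, counted from the gene start to the first base of the match. The S100a9 window held 1 C/EBP match at -236, and the S100a6 window held 0 matches to these letters. The neighbouring calprotectin genes shared none of the 6 motifs in these windows. Each motif was absent from most RefSeq windows, and any tie to the array values was not tested. The S100a11 window held 2 AP-1 matches and 1 PU.1 match. These matches are descriptions of letters, and binding was not measured.

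Genes whose array pattern was nearest to that of an S100 gene were found by the root mean square difference, over the 8 arrays, between values centred on each gene's own mean, among 18211 genes. For S100a6, whose own values spread by 1.08 on this measure, the nearest was Gng5, a G protein gamma subunit, at 0.49, the other gene called over all genes (log2 change 1.58, limma adjusted p = 5.18e-04). Cycs, cytochrome c, followed at 0.53, Rps10, a ribosomal protein, at 0.64, Gngt2, another G protein gamma subunit, at 0.66 and the chaperone gene Hspa8 at 0.67. Unlike S100a6, Cycs, Rps10 and Gngt2 were near their resting values on hemophagocyte 2 (5.84, 7.09 and 6.48). For S100a8 (own spread 1.09) the nearest were Micos10 and Cox17 of the mitochondrion (0.24 and 0.27), Bola2 of iron-sulphur handling (0.25), the chaperone Pdia3 (0.27) and the RNA Rmrp (0.29), all high on hemophagocyte 3 and then 5. For S100a9 (own spread 0.99) they were Zcrb1 (0.27), Rpl10a (0.33), Ifitm6 (0.38), Ranbp1 (0.39) and Serp1 (0.40), all highest on hemophagocyte 3. For S100a10 (own spread 0.90) they were Cd302 (0.19), the scavenger receptor Msr1 (0.21), Sec11c (0.21), the glycolytic enzyme Pgk1 (0.23) and the chemokine Ccl12 (0.23), all high on hemophagocyte 5. Apart from Gng5, none of these genes was called (limma adjusted p of 0.747 or more).

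**Figure D5:**
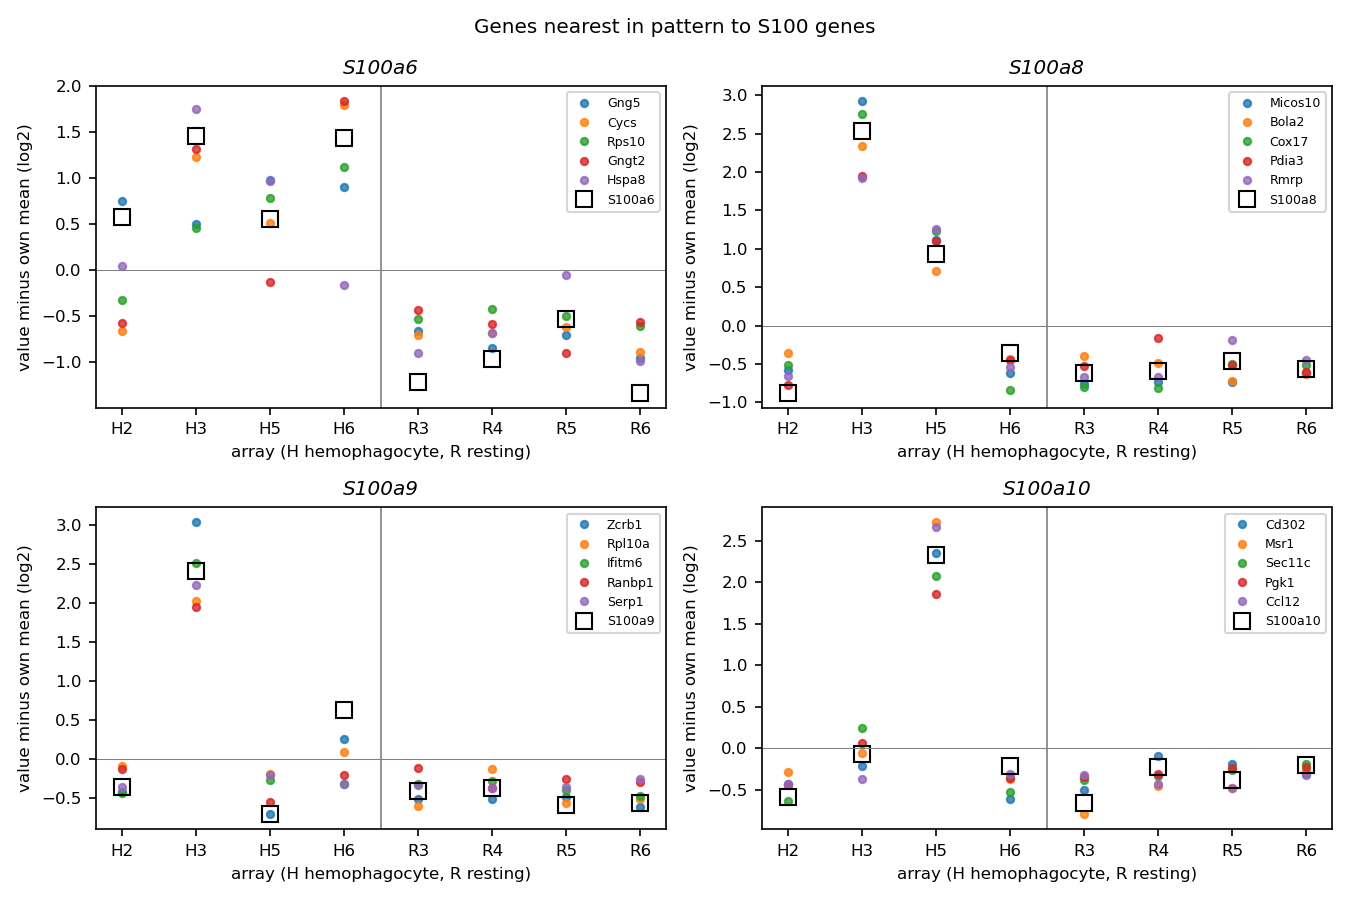
Array patterns of S100a6, S100a8, S100a9 and S100a10 (open squares) with the 5 genes nearest to each (coloured points), as log2 values minus each gene's own mean over the 8 arrays. The S100a6 set is raised on several hemophagocytes, the S100a8 set on hemophagocytes 3 and 5, the S100a9 set on 3 and the S100a10 set on 5.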

How the data were processed

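RNA of captured splenic cells was hybridised to 8 Affymetrix mouse Gene ST 1.0 arrays, 4 per group, after WT-Ovation One-Direct amplification, per the labels' protocols. Amplification from few cells can drop or overstate single transcripts. The authors deposited log2 values, as judged from their range. They used Affymetrix Expression Console 1.1, per the submitters' processing notes; background correction, probe summary, normalization and genome build were not given in the sources used here. Array medians were 6.10 to 6.17, and no further scaling was applied. Of 35556 probe sets, 21789 had 1 gene symbol in the platform annotation, 1621 several and 12146 none. Those with 1 symbol gave 19938 genes, and the probe set of highest mean stood for a gene with several.

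The comparison used limma 3.58.1 under R 4.3.3 (lmFit and eBayes without a block), with p-values adjusted over all genes by Benjamini-Hochberg and a threshold of 0.05. A positive change means a higher value in hemophagocytes. The script was tested on simulated data. Whether arrays hold separate mice is not in the labels, so a p-value covers only the spread among these arrays, part of which may be technical, and 4 arrays per group limit the precision. The members, lists and alternatives were chosen with earlier results of these data known. All members were given; from each list of related genes up to 4 were named by smallest p, and for S100a6 and the 3 other members of widest range the 5 genes nearest in pattern, predicted genes and pseudogenes passed over. Ager, Anxa1 and the markers were named outside that rule, after their values were seen. Alternatives were other normalizations, a level filter, other variance models and weights, the mean of probe sets, arrays left out, the replicate number as a block and a background covariate.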

Additional observations from a re-analysis of the deposited data

Results flagged for a closer look

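In 7 of 94 groups of 4 arrays examined, 1 array lay so far from the other 3 that its gap to the nearest, as a share of the group's range, passed Dixon's 95% limit; chance gives about 1 in 20. For S100a11 the gap was 0.838 of the range, hemophagocyte 2 at 7.91 being below the others at 8.71 to 8.86. Cyba had a gap of 0.847 through hemophagocyte 3 at 8.98, and Cybb one of 0.856 through the same array at 6.25, below 6.59 to 6.65. Cebpb had gaps of 0.870 (hemophagocyte 3 at 6.20, others 6.04 to 6.06) and 0.830 (resting macrophage 4 at 6.44, others 5.80 to 5.91). Resting macrophage 6 was low for Lcn2 at 5.79 (gap 0.898). Resting macrophage 4 was low for the Fc receptor gene Fcgr1 at 6.81, against 7.01 to 7.03 on the others (gap 0.927). The groups examined did not cover every gene named above, so these cases are not a complete list. Outside them, Lyz2 was low on resting macrophage 6 (7.45, others 8.71 to 8.89). Adgre1 was high on hemophagocyte 5 (7.38, others 5.53 to 5.76).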

How the results depend on the processing

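Of 178 member values under 18 alternatives, 164 kept the direction of the deposited values, and 0 members other than S100a6 passed the threshold in any of them. The 14 that turned all belonged to members that were not called. S100a16 was -0.0175 with array weights, -0.0139 with the replicate block and -0.0105 without hemophagocytes 3 and 5, and -0.0331 to 0.0547 with 1 array left out. S100a3 was 0.0538 with the background covariate and 0.0170 without hemophagocytes 3 and 5, and -0.0831 to 0.0041 with 1 array left out. S100a1 was 0.0486 with the covariate, and without hemophagocytes 3 and 5 S100a8 was -0.0627 and S100a10 -0.0328. The cause was not tested.

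Members called numbered 1 with all arrays as deposited, and 0 with median centring, cyclic loess, the intensity trend and robust prior, the replicate block, the covariate and without hemophagocytes 3 and 5; with 1 array left out they ran from 0 to 1. Over all genes, limma called 2 as deposited, 1 with median centring, cyclic loess, the trend and prior or the covariate, 7 with the replicate block, and 1 to 11 with 1 array left out. Members whose groups did not overlap numbered 1, then 2 without hemophagocytes 3 and 5, and 1 to 4 with 1 array left out. Fewer arrays leave less room to overlap, and the share of all genes was not counted with arrays left out. Fits that keep the values (block, covariate, trend, weights) give no such count. The members' median change of 0.59 became 0.88 with the replicate block, 0.18 with the covariate, 0.0033 without hemophagocytes 3 and 5, and 0.15 to 0.82 with 1 array left out. With the replicate block S100a6 had a change of 2.18 and adjusted p = 0.213. The numbers are shared by 3 arrays of each group, and same-numbered arrays deviated together weakly (r across genes 0.17, 0.07 and 0.12). Between differently numbered arrays r ran from -0.24 to 0.18, a range that holds all 3 same-numbered values. The numbers were not taken as pairs, and whether the arrays are paired cannot be told from these values. Scaling moved the median of all genes by under 0.1. Members below the receptor-gene floor limit what their changes can show.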
